A study of Mus musculus with 24 samples.

Results

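The genes described here are the 10 fatty acid elongases and desaturases Elovl1, Elovl2, Elovl3, Elovl5, Elovl6, Elovl7, Fads1, Fads2, Scd1 and Scd2, found by symbol among the 35275 genes of a read-count table, and all 10 passed the filter on low counts. Liver RNA was sequenced from male C57BL/6 mice, 8 to 10 weeks of age, that had all been fasted for 24 h, with 4 libraries in each of 6 genotype groups. The groups were control mice, mice with a liver-specific deletion of Tsc1 (Tsc1 L-/-), of Cpt2 (Cpt2 L-/-) or of both genes (labelled Tsc1Cpt2 L-/-, called DKO), mice labelled PPAR-a KO (Ppara KO), and mice labelled Cpt2L-/- Ppara KO. The labels call the controls wild type, and the study's methods describe them as littermates with floxed Tsc1 and Cpt2 alleles. Per those methods, Cre was driven by the albumin promoter, so the deletions apply to hepatocytes and not to the other cells of the liver. The study's methods do not describe the Ppara KO groups, so where Ppara was lost in them, and whether they shared littermates with the controls, is not given in the sources used here. No fed or unfasted liver was among the libraries.

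Long-chain fatty acids are lengthened at the endoplasmic reticulum by a cycle of condensation, reduction, dehydration and reduction, and the Elovl enzymes catalyze the condensation that sets which chains are lengthened. Elovl5 and Elovl2 act on polyunsaturated chains, in alternation with the desaturases Fads2, which opens the pathway, and Fads1, which acts further along, to make arachidonic and docosahexaenoic acid from dietary linoleic and linolenic acid. Elovl6 lengthens palmitate toward stearate, and Elovl1, Elovl3 and Elovl7 lengthen saturated and monounsaturated chains. The stearoyl-CoA desaturases Scd1 and Scd2 introduce the first double bond of oleate and palmitoleate. In liver these genes are known to be controlled by insulin and feeding through Srebp-1c and Lxr, by polyunsaturated fatty acids themselves, and in part by Pparα, the nuclear receptor that drives fatty acid oxidation genes in fasting. Tsc1 restrains the growth kinase complex mTorc1, and Cpt2 is required for mitochondrial oxidation of long-chain fatty acids.

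Total counts per library were 14470968 to 20371204, and in none of 36 pairs from the same group did the counts point to 1 library deposited 2 times. Counts are given as CPM, the count of a gene relative to the scaled total of its library. FPKM, which also divides by gene length, is used to set genes against each other and for sums, shares and ratios by group. It also gives the levels of some other genes and serves limma as an alternative test. The FPKM are as deposited, without the scaling used for CPM. The labels give each library its own identifier but do not state that each came from a separate animal, so p-values measure the spread between these libraries, which may be technical. Ppara was at 216 to 277 CPM in control and 13.2 to 44.6 in Ppara KO livers, and Tsc1 at 37.2 to 40.1 in control, 18.1 to 28.8 in Tsc1 L-/- and 15.3 to 17.9 in DKO livers. Counts of Cpt2 did not check the labels. In Cpt2 L-/- against control its log2 fold change was −0.11 (edgeR adjusted p = 0.605). In DKO against control it was −0.02 (edgeR adjusted p = 0.929), and in Tsc1 L-/- against control 0.51 (edgeR adjusted p = 0.0374). The study's methods do not say which part of Cpt2 was deleted, so whether whole-gene counts would show the loss is not known. The paper reports loss of Cpt2 by Western blot in its liver-specific deletion models. The hepatocyte gene Alb was at 10932 to 49048 CPM over the 24 libraries. Of 10 hepatocyte markers 3 were lower in Cpt2 L-/- and 5 lower in DKO than in control livers, where 14.9% and 17.1% of all tested genes were. Alb was at 39940 to 49048 CPM in control, 16321 to 37134 in Cpt2 L-/- and 10932 to 14953 in DKO livers. The 10 markers summed to 73968 to 96342 CPM in control and 35092 to 43752 CPM in DKO livers. Of 3 genes chosen after their values were seen, Cd1d2 was at 18.9 to 61.6 CPM in control, 12.8 to 38.6 in Tsc1 L-/- and 10.96 to 29.1 in DKO livers and below 1 CPM in all Cpt2 L-/-, Ppara KO and Cpt2L-/- Ppara KO libraries. Rps3a3 (41.5 to 93.7, 33.3 to 79.2 and 49.7 to 96.0 CPM in the first 3 groups, at most 3.40 CPM in the others) and Gm6472 separated the same groups. Line and genotype cannot be told apart in Cpt2 L-/- against control, Ppara KO against control, DKO against Cpt2 L-/- and both interactions. The comparisons among control, Tsc1 L-/- and DKO livers, and those among the other 3 groups, do not cross this split.

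A few libraries stood apart from their group. The library labelled Cpt2L-/- Ppara KO replicate 1 held 89.9 CPM of Ppara against 26.2 to 45.7 in the other 3 libraries of its group, and 3181 CPM of the Pparα target Cyp4a14 against 185 to 294. It also held 123 CPM of Cpt2 against 31.4 to 39.1, and 23.8 CPM of Tsc1 against 42.4 to 50.05. In the library labelled Ppara KO replicate 4, 97 genes were more than 5 times above every other library, against at most 3 genes in any other library, among them the keratin Krt1 at 547 CPM and the skin barrier gene Lor at 792 CPM. That library also held 493 counts of the elongase Elovl4, which had at most 4 counts in each of the other 23 libraries. In Tsc1 L-/- replicate 3, Srebf1, the gene of the Srebp-1 proteins, was at 335 CPM against 23.6 to 41.0 in the others of its group. In Ppara KO replicate 1, Cpt2 was at 94.8 CPM against 39.8 to 51.4. These genes, apart from Ppara, Cpt2, Tsc1 and Srebf1, were chosen after their values were seen. For the elongases and desaturases some results, but not all, are also given without such libraries. Test results for other genes are given with all libraries only, so how far they rest on such libraries is not shown.

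The promoters of Elovl5, Fads2 and Elovl7 are shown because Fads2 had the widest span of group means in the polyunsaturated branch, Elovl7 the widest of the 10 genes, and Elovl5 passed the test with loss of Cpt2 and with loss of Ppara. Of the 10 genes, 6 had an entry in the RefSeq promoter table (build GRCm38.p6), and each sequence is the 250 bases before the start of the gene, 5′ to 3′ on its own strand, with matched motifs in capitals.
Elovl5, chr9:77917115-77917364, plus strand: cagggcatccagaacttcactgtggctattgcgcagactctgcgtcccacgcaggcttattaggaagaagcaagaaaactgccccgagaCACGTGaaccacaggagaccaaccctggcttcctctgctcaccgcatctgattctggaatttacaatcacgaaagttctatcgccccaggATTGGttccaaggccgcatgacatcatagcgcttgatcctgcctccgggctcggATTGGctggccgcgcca
Fads2, chr19:10101504-10101753, minus strand: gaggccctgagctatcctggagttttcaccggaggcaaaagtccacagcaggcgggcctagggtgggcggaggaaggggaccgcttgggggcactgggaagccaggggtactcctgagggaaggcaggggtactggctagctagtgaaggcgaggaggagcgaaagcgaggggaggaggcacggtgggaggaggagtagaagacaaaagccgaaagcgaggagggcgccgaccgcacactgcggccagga
Elovl7, chr13:108214154-108214403, plus strand: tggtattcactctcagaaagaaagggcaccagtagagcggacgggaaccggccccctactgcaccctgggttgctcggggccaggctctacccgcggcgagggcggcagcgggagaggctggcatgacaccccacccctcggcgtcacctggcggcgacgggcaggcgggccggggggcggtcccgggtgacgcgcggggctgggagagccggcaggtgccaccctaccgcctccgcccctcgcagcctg
The motifs searched for, on both strands, were DR1 (AGGTCANAGGTCA, the repeat bound by Ppar with Rxr), DR4 (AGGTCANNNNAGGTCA, Lxr with Rxr), SRE (TCACNCCAC, Srebp), the CCAAT box (CCAAT), the E-box (CACGTG) and the D-box (TTATGTAA or TTACGTAA), and none of these overlapped in the windows shown. In the 300-base windows of all 32851 RefSeq promoters, of which the first 250 bases lie before the start, DR1 was found in 0.0396%, DR4 in 0.0152%, SRE in 1.24%, the CCAAT box in 37.4%, the E-box in 7.15%, and the D-box forms in 0.938% and 0.119%. Elovl5 held an E-box starting 161 bases before the start and CCAAT boxes starting 71 and 17 bases before it. Elovl1 held a CCAAT box 35 bases before its start, and Elovl2, Elovl6, Elovl7 and Fads2 held none of these letters. This describes letters in a short window and says nothing of whether a factor binds.

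Per gene length, the polyunsaturated branch carried most of the transcript. In control livers Fads2 was at 388 ± 74.9 FPKM (SD, n = 4), Elovl2 at 306 ± 69.2, Elovl5 at 300.4 ± 92.4 and Fads1 at 112 ± 22.1. Scd1 was at 98.3 ± 37.1 FPKM and Elovl3 at 45.4 ± 3.89. The least abundant were Elovl1 at 13.1 ± 1.08 FPKM, Elovl6 at 5.20 ± 0.983, Scd2 at 1.42 ± 0.443 and Elovl7 at 0.126 ± 0.0672. In control livers the ranges of Fads2, Elovl2 and Elovl5 overlapped (295 to 477, 227 to 383 and 190.4 to 393 FPKM), as did those of Fads1 and Scd1 (94.0 to 139 and 45.7 to 130.1 FPKM).
The 10 genes together summed to 1270.5 ± 216 FPKM in control, 1543 ± 492 in Tsc1 L-/-, 1578 ± 153 in Cpt2 L-/-, 1486 ± 123 in DKO, 551 ± 117 in Ppara KO and 851 ± 189 in Cpt2L-/- Ppara KO livers (SD, n = 4). Only the Ppara KO range (486 to 725.8 FPKM) lay wholly below the control range (996 to 1502 FPKM).
The shares of the genes in this sum differed by genotype. Scd1 made up 26.4 ± 7.33% of the summed FPKM in Tsc1 L-/- livers and 1.94 ± 2.16% in DKO livers, against 8.27 ± 4.20% in control livers. Elovl5 made up 34.2 ± 3.33% in Cpt2 L-/- livers and 12.4 ± 3.75% in Tsc1 L-/- livers, against 23.2 ± 3.55% in control livers.

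**Figure D1:**
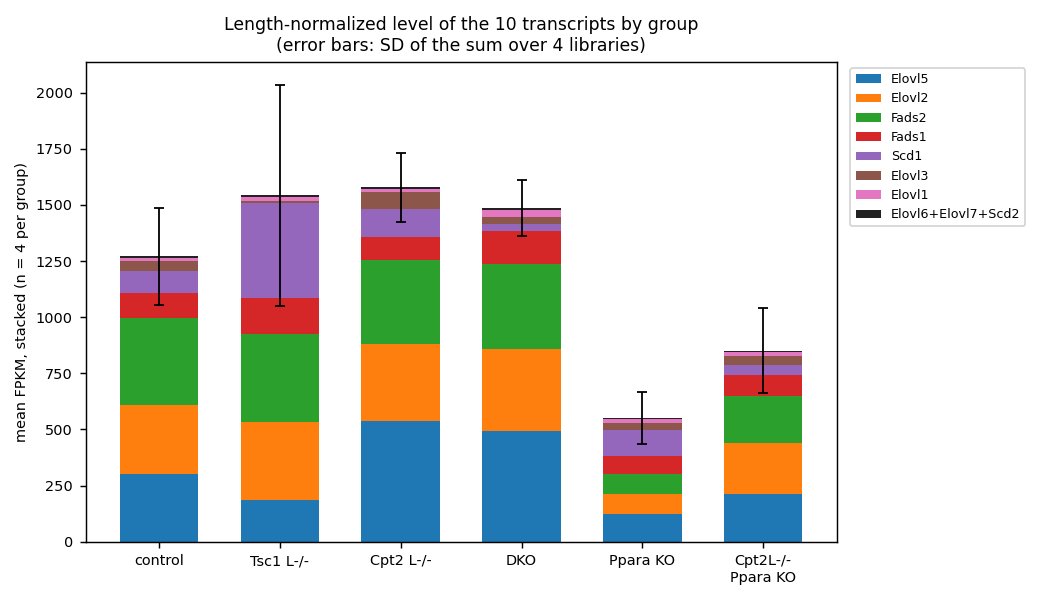
Stacked bars of the mean FPKM of the 10 genes in each genotype group (vertical axis, from 0; n = 4 libraries per group), with the SD of the summed FPKM as an error bar. The sum is lowest in Ppara KO livers (551 FPKM against 1270.5 in control), Elovl5 takes a larger share in Cpt2 L-/- than in control livers (34.2% against 23.2%), and Scd1 a larger one in Tsc1 L-/- livers (26.4% against 8.27%).

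Fads2 and Elovl2, the first desaturase and the last elongase of the polyunsaturated branch, were lower in Ppara KO than in control livers, and did not pass the test against control in the Tsc1 L-/-, Cpt2 L-/- and DKO groups. Fads2 (chromosome 19, 10064164 to 10101503, minus strand), the desaturase that opens the pathway, was at 473, 670.1, 581 and 730.3 CPM in the 4 control libraries and 251, 156, 93.7 and 74.7 in the 4 Ppara KO libraries. The groups did not overlap (log2 fold change −2.09, SE 0.32, edgeR adjusted p = 0.000187). In Tsc1 L-/- livers it was at 589, 327, 826 and 571 CPM, in Cpt2 L-/- livers at 453, 571, 593 and 634 CPM and in DKO livers at 562, 511, 542 and 484 CPM, and none of these groups passed the test against control (edgeR adjusted p = 0.877, 0.68 and 0.456). Cpt2L-/- Ppara KO livers held 252, 269, 467 and 269.7 CPM of Fads2. All 4 values lay above those of Ppara KO livers, but the nearest values were 252.2 and 251.5 CPM. Fads2 was higher than in Ppara KO livers (log2 fold change 1.13, SE 0.31, edgeR adjusted p = 0.0176). This call was lost without either Ppara KO replicate 3 or Cpt2L-/- Ppara KO replicate 3 (edgeR adjusted p between 0.0516 and 0.0558) and in a fit of the 2 groups alone (edgeR adjusted p = 0.093). It was kept without the libraries labelled Ppara KO replicate 4 and Cpt2L-/- Ppara KO replicate 1 together (log2 fold change 1.02, edgeR adjusted p = 0.0418). The Cpt2L-/- Ppara KO range overlapped that of Cpt2 L-/- livers, with 467 CPM in replicate 3 above the lowest Cpt2 L-/- value of 453. Against Cpt2 L-/- livers the difference did not pass the test (log2 fold change −0.83, SE 0.31, edgeR adjusted p = 0.0714). It passed without Cpt2L-/- Ppara KO replicate 3 (edgeR adjusted p = 0.0312), its highest value in the group, in the fits of the 2 groups alone and of all 24 libraries (edgeR adjusted p = 0.0462 and 0.0433) and with DESeq2 (DESeq2 adjusted p = 0.0374).

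Elovl2 (chromosome 13, 41182495 to 41220405, minus strand), which extends polyunsaturated chains toward docosahexaenoic acid, was at 917, 1522, 998 and 1476 CPM in control and 578, 240.4, 138 and 369 CPM in Ppara KO libraries. It was lower in Ppara KO livers without overlap (log2 fold change −1.89, SE 0.37, edgeR adjusted p = 0.00115), and this call held in each of the 17 alternatives run. Cpt2L-/- Ppara KO livers held 1144, 707, 1053 and 551 CPM, higher than in Ppara KO livers (log2 fold change 1.38, SE 0.36, edgeR adjusted p = 0.0137). The highest of these 4 values was in the library labelled replicate 1. Without it and Ppara KO replicate 4 the difference missed the threshold (log2 fold change 1.28, edgeR adjusted p = 0.0556), and it was also lost in a fit of the 2 groups alone (edgeR adjusted p = 0.082). The Cpt2 L-/- libraries ranged from 1000.1 to 1572 CPM, the DKO libraries from 1146 to 1447 CPM and the Tsc1 L-/- libraries from 824 to 2154 CPM, all overlapping control.

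Elovl5 (chromosome 9, 77917364 to 77984519, plus strand), the elongase between the desaturation steps, was lower in both Ppara KO groups than in their counterparts with Ppara. The control libraries held 563, 1169.6, 694 and 1111 CPM and the Cpt2 L-/- libraries 1279.8, 1777, 1383 and 1472 CPM. Every Cpt2 L-/- value lay above every control value, and the difference passed the test (log2 fold change 0.74, SE 0.26, edgeR adjusted p = 0.0396). That call was lost without any 1 of control replicates 1 and 3 and Cpt2 L-/- replicates 2 and 4 (edgeR adjusted p between 0.0723 and 0.0987). It was also lost with no filter on low counts (edgeR adjusted p = 0.0654) and in the fits of all 24 libraries and with the Ppara KO groups (edgeR adjusted p = 0.0899 and 0.116). Elovl5 was at 443, 415, 356 and 227 CPM in Ppara KO and 869.9, 538, 667 and 296 CPM in Cpt2L-/- Ppara KO libraries. Both falls passed the test, with a log2 fold change of −1.30 (SE 0.31, edgeR adjusted p = 0.00508) against control and −1.31 (SE 0.31, edgeR adjusted p = 0.01) against Cpt2 L-/-. Both calls held in each of the 17 alternatives run. Both also passed without Ppara KO replicate 4 and Cpt2L-/- Ppara KO replicate 1 (log2 fold change −1.13, edgeR adjusted p = 0.00611 against control, and log2 fold change −1.56, edgeR adjusted p = 0.00154 against Cpt2 L-/-). In Tsc1 L-/- livers it was at 757, 394, 300.4 and 627 CPM, which overlapped control (log2 fold change −0.76, SE 0.26, edgeR adjusted p = 0.0931). That difference passed without either control replicate 1 or Tsc1 L-/- replicate 1 (edgeR adjusted p between 0.0336 and 0.0477) and with DESeq2 (DESeq2 adjusted p = 0.0406). In DKO livers it was at 1384, 1066, 1244 and 1387 CPM, above every Tsc1 L-/- value (log2 fold change 1.30, SE 0.26, edgeR adjusted p = 0.00113).

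Fads1 (chromosome 19, 10182888 to 10196870, plus strand), the desaturase that yields arachidonic acid, had the smallest spread of group means of the 4. They ran from 293 ± 40.6 CPM (SD, n = 4) in Ppara KO to 543 ± 219 CPM in Tsc1 L-/- livers, and each neighbour in the order overlapped the next. Fads1 passed the test in none of the 10 comparisons as fitted on 16 libraries, where the smallest edgeR adjusted p was 0.08, for Ppara KO against control (log2 fold change −0.49). In a fit of DKO and Cpt2 L-/- libraries alone it was higher in the DKO group (log2 fold change 0.49, edgeR adjusted p = 0.0382). Fads1 and Fads2 lie 81384 bases apart on chromosome 19 on opposite strands. Both genes had their Tsc1 L-/- maximum in replicate 3, the library with high Srebf1 (819.6 and 826 CPM). The part of that library in the Tsc1 L-/- means was not tested apart from leaving it out, which gave no call of either gene against control (log2 fold change 0.15, edgeR adjusted p = 0.769 for Fads1, and log2 fold change −0.30, edgeR adjusted p = 0.398 for Fads2).

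**Figure D2:**
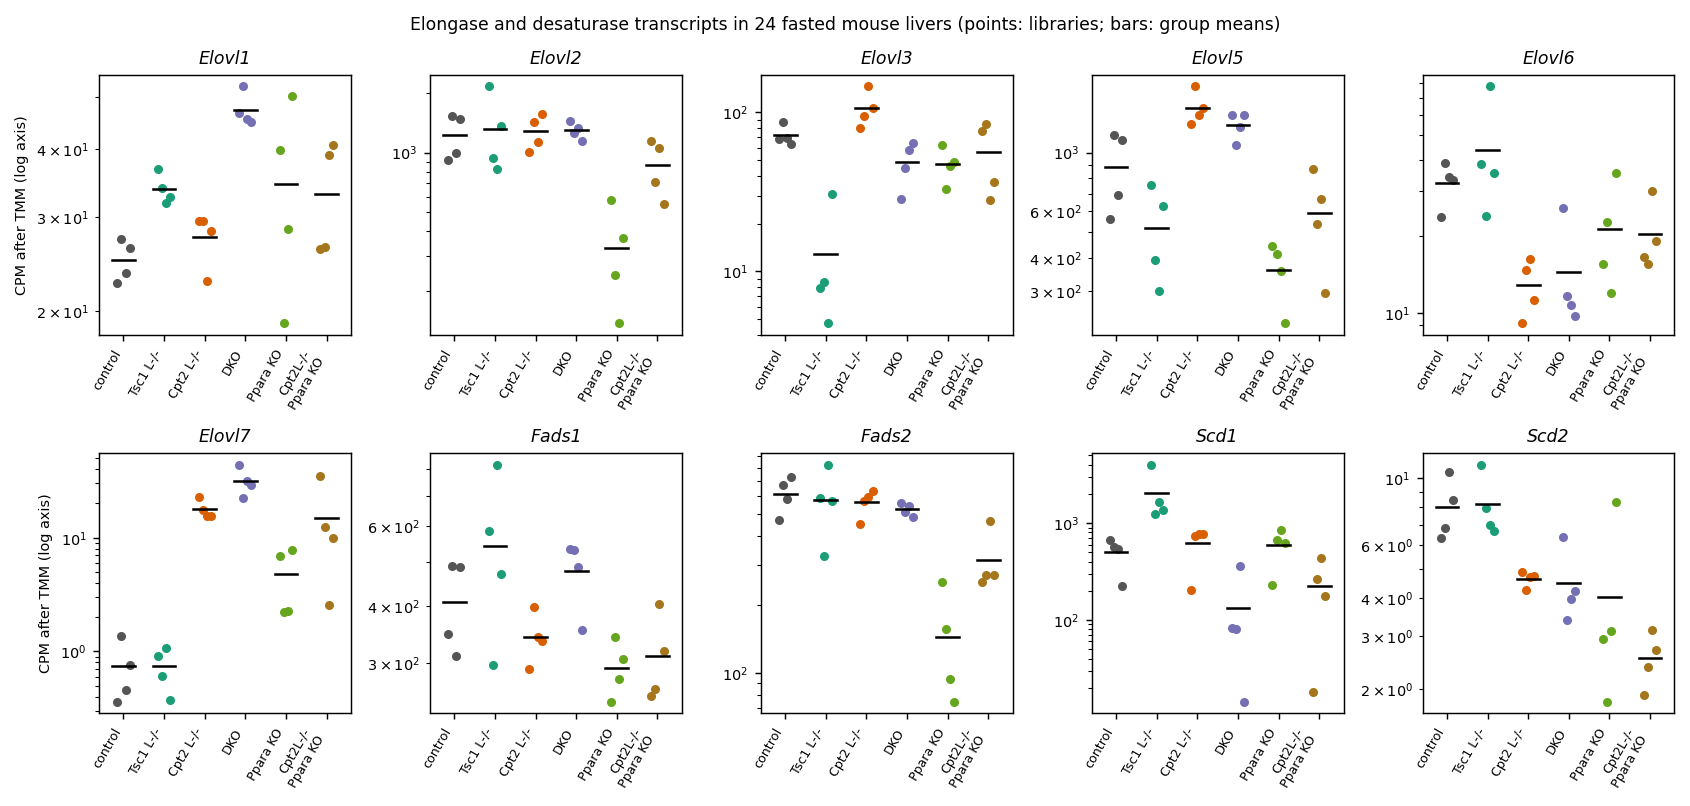
CPM on a log axis for each of the 10 genes, 1 panel per gene, with the 4 libraries of each of the 6 genotype groups as points and group means as horizontal bars. Fads2, Elovl2 and Elovl5 are lowest in Ppara KO livers, Elovl7 is at 0.362 to 1.38 CPM in control livers and at 22.3 to 43.9 CPM in DKO livers, and every Tsc1 L-/- value of Scd1 is above all others.

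Elovl7 showed the largest differences of the 10 genes. Elovl7 (chromosome 13, 108214404 to 108287105, plus strand), an elongase of saturated and monounsaturated chains, was at 0.362, 1.38, 0.462 and 0.755 CPM in control and 0.909, 0.614, 1.08 and 0.375 CPM in Tsc1 L-/- libraries. It was at 22.9, 17.7, 15.6 and 15.5 CPM in Cpt2 L-/- and 43.9, 22.3, 31.4 and 29.3 CPM in DKO libraries. The groups with and without Cpt2 did not overlap (log2 fold change 4.63, SE 0.33, edgeR adjusted p = 1.25e-07 for Cpt2 L-/- against control, and log2 fold change 5.41, SE 0.34, edgeR adjusted p = 3.44e-08 for DKO against Tsc1 L-/-). Both calls held in every alternative run. DKO livers were higher than Cpt2 L-/- livers by a log2 fold change of 0.84 (SE 0.25, edgeR adjusted p = 0.0283), although the lowest DKO value lay below the highest Cpt2 L-/- value. This smaller call was lost without any 1 of Cpt2 L-/- replicates 2, 3 and 4 and DKO replicates 1 and 3 (edgeR adjusted p between 0.0548 and 0.106), and in the fit of all 24 libraries (edgeR adjusted p = 0.34).

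Elovl7 was also higher without Ppara alone. Ppara KO libraries held 6.85, 2.21, 2.29 and 7.86 CPM, above every control value (log2 fold change 2.74, SE 0.69, edgeR adjusted p = 0.00764), also without replicate 4, which held skin keratins (log2 fold change 2.42, edgeR adjusted p = 0.0195). On the log2 scale of FPKM plus 1, where so low a gene moves little, the difference did not pass (limma adjusted p = 0.148). Cpt2L-/- Ppara KO libraries held 34.7, 12.5, 2.54 and 9.96 CPM of Elovl7, the most dispersed group. The library labelled replicate 1 held the highest value, within the DKO range, and the other 3 lay below every Cpt2 L-/- value. With all libraries the group did not pass the test against Cpt2 L-/- (log2 fold change −0.26, SE 0.56, edgeR adjusted p = 0.778) or against Ppara KO (log2 fold change 1.62, SE 0.59, edgeR adjusted p = 0.0523). Without that library and Ppara KO replicate 4 neither difference passed (log2 fold change −1.11, edgeR adjusted p = 0.143 from Cpt2 L-/-, and log2 fold change 1.11, edgeR adjusted p = 0.182 from Ppara KO). The difference from Ppara KO passed without any 1 of Ppara KO replicates 1 and 4 and Cpt2L-/- Ppara KO replicates 3 and 4 (edgeR adjusted p between 0.0128 and 0.049). Of the macrophage markers 3 of 12 were higher and 2 lower in Cpt2 L-/- than in control livers, where 16.2% and 14.9% of all tested genes were. The summed level of the markers was 283 to 463 against 281 to 455 CPM, with each of the 12 detected. Of these, Gpnmb and Trem2 are both known from lipid-laden macrophages, and Gpnmb was higher (log2 fold change 3.54, SE 0.40, edgeR adjusted p = 1.65e-05) and Trem2 lower (log2 fold change −1.35, SE 0.46, edgeR adjusted p = 0.0302). Cd68, another of the 12, was also higher (log2 fold change 2.03, SE 0.34, edgeR adjusted p = 0.00039). In DKO against control livers 3 of the 12 were higher and 7 lower, where 19.3% and 17.1% of all tested genes were. Their summed level in DKO livers was 274 to 433 CPM. The part of other cell types in Elovl7 was not tested. In whole liver, a change in the number of cells of a type and a change in RNA per cell cannot be told apart.

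Elovl6 (chromosome 3, 129532386 to 129638495, plus strand), which takes palmitate to stearate and is a known target of Srebp-1c, went the opposite way from Elovl7 with loss of Cpt2. The control libraries held 23.8, 38.7, 34.1 and 33.3 CPM and the Cpt2 L-/- libraries 9.10, 14.7, 16.3 and 11.2 CPM. All Cpt2 L-/- values lay below all control values (log2 fold change −1.34, SE 0.37, edgeR adjusted p = 0.0132), a call that held in each of the 17 alternatives run. DKO libraries held 25.8, 11.7, 10.7 and 9.72 CPM, with replicate 1 within the control range and the other 3 below it (log2 fold change −1.14, SE 0.37, edgeR adjusted p = 0.0256). This call was lost without any 1 of control replicates 2 and 3 and DKO replicates 2, 3 and 4 (edgeR adjusted p between 0.0531 and 0.0736), and with no filter on low counts (edgeR adjusted p = 0.058). Tsc1 L-/- libraries held 38.4, 24.0, 77.6 and 35.4 CPM, with the highest value in replicate 3, and DKO livers were lower than these (log2 fold change −1.58, SE 0.37, edgeR adjusted p = 0.0047), also without that library (log2 fold change −1.16, edgeR adjusted p = 0.0127). Ppara KO libraries held 15.5, 22.7, 12.0 and 35.4 CPM and Cpt2L-/- Ppara KO libraries 16.6, 15.6, 30.1 and 19.2 CPM. The Ppara KO group did not differ from control past the threshold with all libraries (log2 fold change −0.60, SE 0.30, edgeR adjusted p = 0.136), and without replicate 4, its highest value, it was lower (log2 fold change −0.96, edgeR adjusted p = 0.0163).

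Elovl3 (chromosome 19, 46131897 to 46135307, plus strand), an elongase known for daily rhythm and male-biased expression in liver, was lowest in Tsc1 L-/- livers. It was at 67.7, 86.5, 69.1 and 63.1 CPM in control and 7.82, 8.60, 4.71 and 30.6 CPM in Tsc1 L-/- libraries. Of the Tsc1 L-/- values 3 were below 9 CPM and the fourth, in replicate 4, was 30.6, still below every control value (log2 fold change −2.46, SE 0.48, edgeR adjusted p = 0.00799). In a fit of these 2 groups alone the difference did not pass (edgeR adjusted p = 0.0671). DKO libraries held 28.6, 44.7, 57.8 and 63.9 CPM, higher than Tsc1 L-/- (log2 fold change 1.92, SE 0.47, edgeR adjusted p = 0.00676) and overlapping control. That call was lost in a fit of the 2 groups alone (edgeR adjusted p = 0.0557). Cpt2 L-/- libraries held the highest level, 80.2, 94.3, 146 and 106 CPM, and overlapped control (log2 fold change 0.57, SE 0.44, edgeR adjusted p = 0.358), with the difference passing in a fit of the 2 groups alone (edgeR adjusted p = 0.0266). Cpt2L-/- Ppara KO libraries held 76.5, 84.2, 28.3 and 36.5 CPM, lower than Cpt2 L-/- (log2 fold change −0.92, SE 0.30, edgeR adjusted p = 0.0408). The 2 groups overlapped, and the call was lost without any 1 of Cpt2 L-/- replicates 2, 3 and 4 and Cpt2L-/- Ppara KO replicates 3 and 4 (edgeR adjusted p between 0.0543 and 0.144), in a fit of the 2 groups alone and in that of all 24 libraries (edgeR adjusted p = 0.09 and 0.124). Of 16 clock genes tested, 0 were higher and 0 lower in Tsc1 L-/- livers against control by the edgeR test (3 higher at an unadjusted p under 0.05, and 0 by DESeq2 and by limma on FPKM), with a median log2 fold change of 0.02. Of 10 male-biased liver genes 0 were higher by edgeR (1 at an unadjusted p under 0.05, and 0 by DESeq2 and by limma) and 2 lower, with a median of −0.26. In this comparison 4.16% of all tested genes were higher and 2.48% lower. Of 3 female-biased liver genes tested 0 passed by edgeR, with a median of 1.44. In the higher direction 1 had an unadjusted p under 0.05, and DESeq2 and limma each called 1. The summed level of the full female-biased list was 23.4 to 50.4 CPM in Tsc1 L-/- and 11.4 to 24.7 CPM in control livers. The part of clock or hormonal state in the Elovl3 difference was not tested.

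Elovl1 (chromosome 4, 118428093 to 118432953, plus strand), which makes very long saturated chains for sphingolipids, was highest in DKO livers. It was at 22.6, 27.3, 23.6 and 26.3 CPM in control, and 29.5, 29.4, 22.8 and 28.2 CPM in Cpt2 L-/- libraries. It was at 36.7, 33.9, 31.8 and 32.7 CPM in Tsc1 L-/- and 46.8, 52.4, 45.5 and 44.9 CPM in DKO libraries. The 4 DKO values exceeded all control, Cpt2 L-/- and Tsc1 L-/- values, and DKO was higher than control (log2 fold change 0.94, SE 0.11, edgeR adjusted p = 3.45e-06), than Cpt2 L-/- (log2 fold change 0.81, SE 0.11, edgeR adjusted p = 0.00011) and than Tsc1 L-/- (log2 fold change 0.50, SE 0.11, edgeR adjusted p = 0.00147), the last call being lost in the fit of all 24 libraries (edgeR adjusted p = 0.0914). Tsc1 L-/- livers were higher than control without overlap (log2 fold change 0.44, SE 0.11, edgeR adjusted p = 0.0178), a call lost without either control replicate 1 or 3 (edgeR adjusted p between 0.0529 and 0.0536) and in the fit of all 24 libraries (edgeR adjusted p = 0.335). Ppara KO libraries spread from 19.0 to 50.4 CPM, with the maximum in replicate 4, and Cpt2L-/- Ppara KO libraries from 26.1 to 40.7 CPM. Neither group passed the test against its counterpart with Ppara (log2 fold change 0.47, edgeR adjusted p = 0.154 against control, and log2 fold change 0.27, edgeR adjusted p = 0.452 against Cpt2 L-/-). The first passed without Ppara KO replicate 2 (edgeR adjusted p = 0.0279). Elovl1 overlaps Cdc20 on the opposite strand, and the strand setting of the counting is not given, but Cdc20 was at no more than 0.945 CPM in any library.

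Scd1 varied widely between libraries of 1 group. Scd1 (chromosome 19, 44394451 to 44407709, minus strand), the main liver enzyme of oleate synthesis, was at 669, 570.4, 543 and 224 CPM in control and 4008, 1255, 1644 and 1362 CPM in Tsc1 L-/- libraries. Every Tsc1 L-/- value lay above every value of the other 5 groups, yet the spread was wide and the difference from control did not pass (log2 fold change 2.05, SE 0.78, edgeR adjusted p = 0.149). A fit of the 2 groups alone just passed (edgeR adjusted p = 0.0499). DKO libraries held 82.6, 80.1, 357 and 14.4 CPM. All 4 lay below all Tsc1 L-/- values (log2 fold change −3.94, SE 0.85, edgeR adjusted p = 0.00334), a call that held in each of the 16 alternatives run. Against control and Cpt2 L-/- livers, at 205, 728, 769.7 and 776 CPM, DKO livers did not pass (log2 fold change −1.90, edgeR adjusted p = 0.0746, and log2 fold change −2.20, edgeR adjusted p = 0.0702, in that order). Without DKO replicate 3, the highest DKO value, both passed (log2 fold change −3.06, edgeR adjusted p = 0.00694, and log2 fold change −3.36, edgeR adjusted p = 0.0106). Both also passed with DESeq2 (DESeq2 adjusted p = 0.0312 and 0.0185) and with limma on log2 FPKM. Ppara KO libraries held 232, 662, 851 and 618 CPM, overlapping control. Cpt2L-/- Ppara KO libraries held 17.9, 267, 437 and 176 CPM, the lowest of them in the library labelled replicate 1.

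Scd2 (chromosome 19, 44293676 to 44306864, plus strand), the desaturase typical of brain and of dividing or immature cells, lies 87586 bases from Scd1 and was expressed at a small fraction of its level. The control libraries held 6.34, 6.82, 10.5 and 8.48 CPM and the Cpt2 L-/- libraries 4.90, 4.25, 4.70 and 4.73 CPM, lower without overlap (log2 fold change −0.79, SE 0.22, edgeR adjusted p = 0.0107). The call was lost without control replicate 3 (edgeR adjusted p = 0.0581) and in limma on FPKM. It was also lost in the fits of all 24 libraries and with the Ppara KO groups (edgeR adjusted p = 0.0824 and 0.127). DKO libraries held 6.38, 3.40, 3.97 and 4.22 CPM (log2 fold change −0.82, SE 0.22, edgeR adjusted p = 0.00748 against control), with replicate 1 inside the control range, and the call was lost in the fit of all 24 libraries (edgeR adjusted p = 0.0556). Ppara KO libraries held 2.93, 1.81, 3.12 and 8.34 CPM, and Cpt2L-/- Ppara KO libraries 1.91, 2.36, 3.13 and 2.70 CPM. The highest Ppara KO value was in replicate 4, without which Scd2 was lower than in control by a wider margin (log2 fold change −1.61, edgeR adjusted p = 0.000475) than with it (log2 fold change −0.99, SE 0.35, edgeR adjusted p = 0.0406). The call with all 4 was lost without any 1 of control replicates 2, 3 and 4 and Ppara KO replicates 1, 2 and 3 (edgeR adjusted p between 0.0523 and 0.118), and in a fit of the 2 groups alone (edgeR adjusted p = 0.108). Among stellate cell and fibroblast markers, 4 of 12 were lower in Cpt2 L-/- than in control livers, and 10 of 12 were lower in DKO livers, with a summed level of 405 to 581 CPM in control, 321 to 445 in Cpt2 L-/- and 272 to 341 in DKO livers. In Ppara KO livers, where Scd2 was also lower, 1 of the 12 was lower and the summed level was 388 to 498 CPM. Each of the 12 was detected. The shares of all tested genes that were lower than in control were 14.9% in Cpt2 L-/-, 17.1% in DKO and 13.2% in Ppara KO livers. Endothelial markers were lower for 0 of 10 in Cpt2 L-/- livers (0 also at an unadjusted p under 0.05, by DESeq2 and by limma) and 5 of 10 in DKO livers by edgeR. The part of these cells in the level of Scd2 was not tested. Scd1, Scd2 and their relatives Scd3 and Scd4 are similar in sequence. Reads could have been split between them, and the counts of each are uncertain to that extent.

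The calls can be counted by comparison against the share of all tested genes called. In Tsc1 L-/- against control livers, 1 gene of 10 was higher (Elovl1) and 1 lower (Elovl3), where 4.16% of all tested genes were higher and 2.48% lower. In Cpt2 L-/- against control livers, 2 were higher (Elovl5, Elovl7) and 2 lower (Elovl6, Scd2), where 16.2% and 14.9% of all genes were. In DKO against control livers, 2 were higher (Elovl1, Elovl7) and 2 lower (Elovl6, Scd2), where 19.3% and 17.1% of all genes were. These 3 comparisons share the control libraries, and in the last 2 the share of the 10 was near that of all genes.
Between DKO and Cpt2 L-/- livers, 2 genes were higher (Elovl1, Elovl7) and 0 lower by the edgeR test, where 10.9% and 7.4% of all genes were. In the lower direction 2 genes had an unadjusted p under 0.05, and DESeq2 and limma each called 1, Scd1. Between DKO and Tsc1 L-/- livers, 4 were higher (Elovl1, Elovl3, Elovl5, Elovl7) and 3 lower (Elovl6, Scd1, Scd2), where 16.9% and 15.2% of all genes were, a larger share of the 10 than of all genes and the most calls of the 10 comparisons. It was also the only one of the 10 comparisons in which Scd1 passed.
Between Ppara KO and control livers, 1 was higher (Elovl7) and 4 lower (Elovl2, Elovl5, Fads2, Scd2), where 15.9% and 13.2% of all genes were. The lower genes made up a larger share of the 10 than of all genes, and without Ppara KO replicate 4 Elovl6 joined them. Between Cpt2L-/- Ppara KO and Cpt2 L-/- livers, 0 were higher and 2 lower (Elovl3, Elovl5) by edgeR, where 10.3% and 8.01% of all genes were. In the higher direction 1 gene had an unadjusted p under 0.05, and DESeq2 and limma called 0. Between Cpt2L-/- Ppara KO and Ppara KO livers, 2 were higher (Elovl2, Fads2) and 0 lower by edgeR, where 12.9% and 12.6% of all genes were. In the lower direction 1 gene had an unadjusted p under 0.05, and DESeq2 and limma called 0. In a fit of those 2 groups alone by edgeR 0 of the 10 passed in either direction. The median log2 fold change of the 10 genes was −0.60 in Ppara KO against control, −0.70 in Cpt2L-/- Ppara KO against Cpt2 L-/-, and between −0.07 and 0.10 in the comparisons of Tsc1 L-/-, Cpt2 L-/- and DKO with control and of DKO with Tsc1 L-/-. It was 0.00 in DKO against Cpt2 L-/- and 0.17 in Cpt2L-/- Ppara KO against Ppara KO. The median of all tested genes lay between −0.016 and 0.03 in every comparison.

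**Figure D3:**
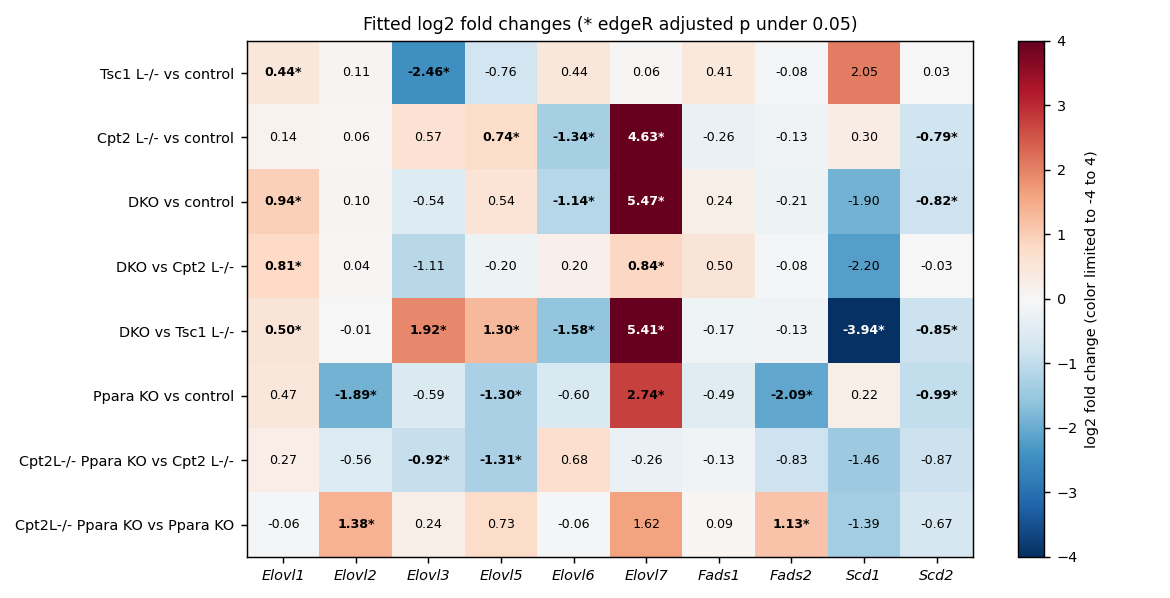
Fitted log2 fold change of each gene (columns) in the 8 comparisons between 2 groups (rows), printed in each cell and colored from blue (lower) to red (higher), with an asterisk where the edgeR adjusted p was under 0.05. Elovl7 has the largest positive value (5.47 in DKO against control), Scd1 the largest negative one (−3.94 in DKO against Tsc1 L-/-), and Fads1 has no asterisk.

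The interaction of the 2 deletions asks whether loss of Cpt2 changed a gene by a different amount in livers without Tsc1 than in livers with it. By the edgeR test 0 of the 10 genes passed, where 2.38% of all genes did, and 2 had an unadjusted p under 0.05. Cd1d2, Rps3a3 and Gm6472 set the Cpt2 L-/- group apart from the other groups here, so line and genotype cannot be told apart. The widest difference was in Scd1 (log2 difference −4.24, SE 1.11, edgeR adjusted p = 0.0665), which passed without DKO replicate 3 (log2 difference −5.41, edgeR adjusted p = 0.0161). Elovl3 passed without Tsc1 L-/- replicate 4 (log2 difference 2.23, edgeR adjusted p = 0.00593), its highest value in that group. DESeq2 and limma on log2 FPKM each called 1 of the 10, Scd1. For Fads2, Elovl2 and Scd2 the fitted differences were 0.00, −0.07 and −0.06 on the log2 scale, with SEs of 0.29, 0.36 and 0.31.

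The corresponding interaction of Cpt2 and Ppara asks whether the effect of Cpt2 loss differed in livers without Ppara, and the control and Cpt2 L-/- libraries enter both interactions. Of the 10 genes 3 passed, a share near the 24% of all tested genes that did. Cd1d2, Rps3a3 and Gm6472 set control apart from the other groups of this interaction. Line and genotype therefore cannot be told apart in the effects with Ppara or in the differences below. For Elovl7 the effect of Cpt2 loss was a log2 fold change of 4.63 with Ppara and 1.62 without it (log2 difference −3.00, SE 0.89, edgeR adjusted p = 0.0236), and the difference remained without Ppara KO replicate 4 and Cpt2L-/- Ppara KO replicate 1 (log2 difference −3.53, edgeR adjusted p = 0.00578). For Elovl6 the effects were −1.34 and −0.06 (log2 difference 1.28, SE 0.42, edgeR adjusted p = 0.0362), also without the same libraries (log2 difference 1.72, edgeR adjusted p = 0.00489). For Fads2 they were −0.13 and 1.13 (log2 difference 1.26, SE 0.44, edgeR adjusted p = 0.0461), and without those libraries the difference missed the threshold (log2 difference 1.13, edgeR adjusted p = 0.0533).
The Elovl6 call was lost without any 1 of control replicates 2, 3 and 4, Cpt2 L-/- replicates 1 and 4, Ppara KO replicates 1 and 3 and Cpt2L-/- Ppara KO replicate 3 (edgeR adjusted p between 0.0594 and 0.0809), and in the fit of all 24 libraries (edgeR adjusted p = 0.0679). The Elovl7 call was lost with no filter on low counts (edgeR adjusted p = 0.0685) and in limma on FPKM with a pseudocount of 1 (limma adjusted p = 0.103). The Fads2 call was lost without any 1 of control replicates 2, 3 and 4, Cpt2 L-/- replicates 1, 2, 3 and 4, Ppara KO replicates 2, 3 and 4 and Cpt2L-/- Ppara KO replicates 2 and 3 (edgeR adjusted p between 0.0545 and 0.0996), and with no filter or with the replicate number as a block (edgeR adjusted p = 0.0569 and 0.0627). For Elovl5 the effect of Cpt2 loss was a log2 fold change of 0.74 with Ppara and 0.73 without it, a difference of −0.01 (SE 0.43). Elovl2 did not pass (log2 difference 1.32, SE 0.50, edgeR adjusted p = 0.0634), but it passed without either Ppara KO replicate 1 or Cpt2L-/- Ppara KO replicate 4 (edgeR adjusted p between 0.0107 and 0.043), in the fit of all 24 libraries (edgeR adjusted p = 0.042) and with DESeq2 (DESeq2 adjusted p = 0.0338).

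**Figure D4:**
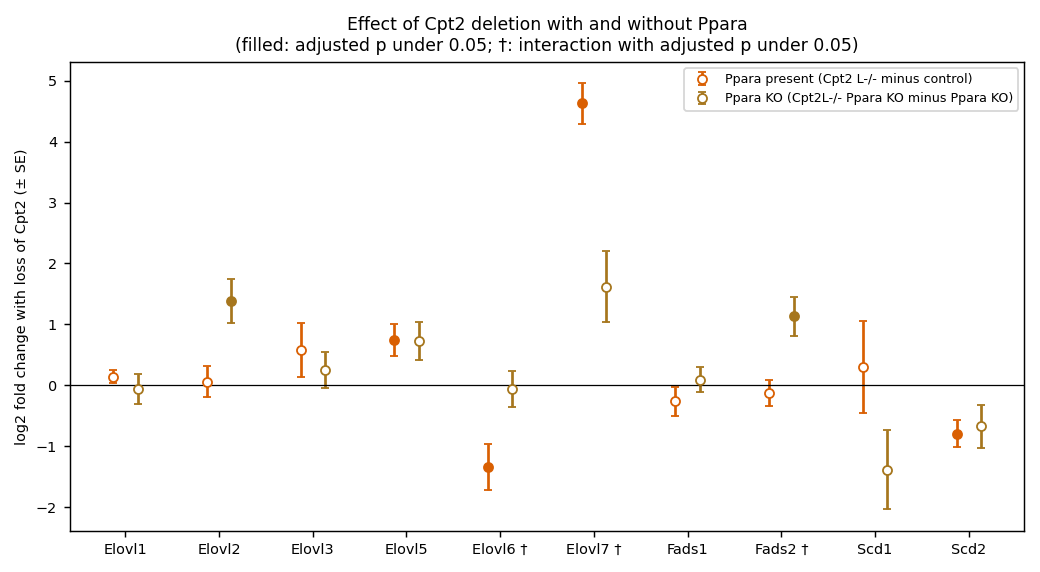
Log2 fold change with loss of Cpt2 for each gene (vertical axis), as pairs of points for livers with Ppara and for Ppara KO livers, with standard errors as bars; filled points had an edgeR adjusted p under 0.05 and a dagger marks genes whose interaction did. Elovl7 stands at 4.63 with Ppara and 1.62 without it, Elovl6 at −1.34 and −0.06, and the points of Elovl5 lie side by side. Line and genotype cannot be told apart in the points with Ppara.

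Ratios within a library do not depend on the scaling between libraries and are given as a description, with no test. The ratio of Fads2 to Fads1 in FPKM was 3.49 ± 0.543 in control (SD, n = 4), 3.79 ± 0.459 in Cpt2 L-/-, 2.48 ± 0.223 in Tsc1 L-/-, 2.57 ± 0.397 in DKO, 1.18 ± 0.797 in Ppara KO and 2.30 ± 0.290 in Cpt2L-/- Ppara KO livers. In Ppara KO libraries the ratio reached as low as 0.559. The ratio of Elovl5 to Elovl2 was 0.966 ± 0.0953 in control, 0.545 ± 0.0696 in Tsc1 L-/-, 1.60 ± 0.216 in Cpt2 L-/- and 1.35 ± 0.214 in DKO livers, 1.94 ± 1.25 in Ppara KO and 0.919 ± 0.148 in Cpt2L-/- Ppara KO livers. The Tsc1 L-/- range (0.479 to 0.630) lay wholly below and the Cpt2 L-/- range (1.28 to 1.75) wholly above that of control (0.838 to 1.05). Elovl5 to Elovl6, a ratio of polyunsaturated to saturated chain elongase, was 57.6 ± 12.7 in control, 30.9 ± 15.3 in Tsc1 L-/-, 255 ± 52.5 in Cpt2 L-/- and 216 ± 81.0 in DKO livers, with 44.3 ± 23.2 in Ppara KO and 66.5 ± 34.6 in Cpt2L-/- Ppara KO livers.

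**Figure D5:**
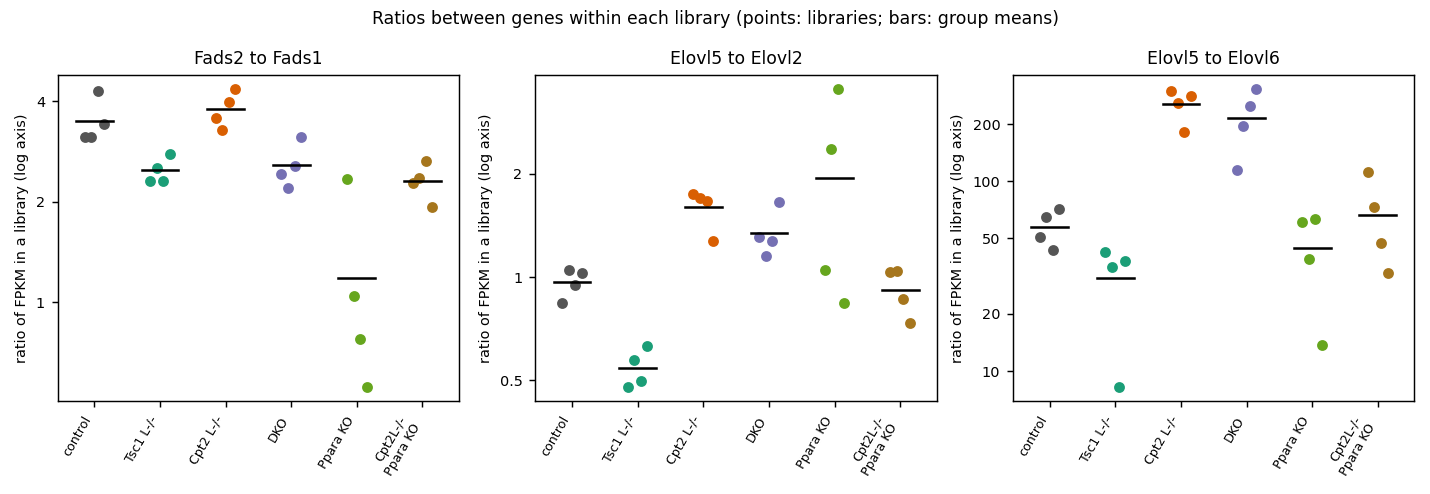
Ratio of FPKM between pairs of genes in each library, on a log axis, in 3 panels (Fads2 to Fads1, Elovl5 to Elovl2, Elovl5 to Elovl6), with libraries as points and group means as bars. The Elovl5 to Elovl6 ratio is highest in Cpt2 L-/- and DKO livers (means of 255 and 216), and the Fads2 to Fads1 ratio is lowest in Ppara KO livers (mean of 1.18).

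The partner enzymes of the elongation cycle are the ketoacyl reductase Hsd17b12, the dehydratases Hacd1 to Hacd4 and the enoyl reductase Tecr. In Cpt2 L-/- against control livers, where 16.2% of all tested genes were higher and 14.9% lower, of 6 tested, 1 was higher (Hacd3, log2 fold change 0.48, SE 0.14, edgeR adjusted p = 0.0123) and 1 lower (Tecr, log2 fold change −1.28, SE 0.14, edgeR adjusted p = 4.58e-06). The control mean of Tecr was 289 ± 26.6 CPM (SD, n = 4) and the Cpt2 L-/- mean 119 ± 15.6 CPM. Among the elongases of the 10 genes, Elovl5 and Elovl7 were higher and Elovl6 lower in Cpt2 L-/- livers. Elovl1, Elovl2 and Elovl3 did not pass the test. In Ppara KO against control livers 4 of the 6 were lower, with a median log2 fold change of −1.12, where 13.2% of all tested genes were lower. In Cpt2L-/- Ppara KO against Cpt2 L-/- livers, where 8.01% of all tested genes were lower, 2 of the 6 were. These were Hsd17b12 (log2 fold change −0.98, SE 0.29, edgeR adjusted p = 0.0263) and Hacd3 (log2 fold change −0.74, SE 0.25, edgeR adjusted p = 0.0458).
The cytochrome b5 system hands electrons to the desaturases. Of its 4 genes tested, 2 were lower in Cpt2 L-/- than in control livers, the reductase Cyb5r3 (log2 fold change −0.63, edgeR adjusted p = 0.0213) and cytochrome b5 itself, Cyb5a (log2 fold change −0.53, edgeR adjusted p = 0.032). In Cpt2L-/- Ppara KO against Cpt2 L-/- livers 3 were higher, led by Cyb5r1 (log2 fold change 1.67, edgeR adjusted p = 0.0037). The share of all tested genes was 14.9% lower in the first comparison and 10.3% higher in the second.

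Genes upstream and downstream of the 10 were taken from lists chosen with earlier results of these data known. Acacb, which makes malonyl-CoA at mitochondria, was higher in Cpt2 L-/- than in control livers (log2 fold change 2.03, SE 0.27, edgeR adjusted p = 4.2e-05), and Acss2 and Acly, which make cytosolic acetyl-CoA, were lower (log2 fold change −0.997, edgeR adjusted p = 0.000164 for Acss2, and log2 fold change −0.89, edgeR adjusted p = 0.011 for Acly). Of the 9 genes of malonyl-CoA and palmitate supply tested, 2 were higher and 2 lower in that comparison, with a median log2 fold change of −0.28. Of 12 tested genes from a list of Srebp-1 and Lxr targets, which also holds Acacb and Acly of the supply list, 2 were higher and 3 lower in the same comparison (median log2 fold change −0.54). Of 17 cholesterol synthesis genes 0 were higher and 9 lower (median log2 fold change −1.28). Higher cholesterol genes numbered 0 also at an unadjusted p under 0.05, by DESeq2 and by limma. For these lists, the shares of all tested genes in Cpt2 L-/- against control livers were 16.2% higher and 14.9% lower. Insig2, which holds Srebp in the endoplasmic reticulum, was higher (log2 fold change 1.97, edgeR adjusted p = 0.000261) and Insig1, itself a Srebp target, lower (log2 fold change −1.40, edgeR adjusted p = 0.0363). Srebf1 did not pass (log2 fold change −0.19, edgeR adjusted p = 0.868).
Peroxisomal genes of the last step of docosahexaenoic acid synthesis, which shortens the product of Elovl2 and Fads2, were lower without Ppara: 7 of 8 in Ppara KO against control and 7 of 8 in Cpt2L-/- Ppara KO against Cpt2 L-/- livers, with median log2 fold changes of −1.59 and −1.78. Among all tested genes 13.2% and 8.01% were lower in these comparisons. Of 4 long-chain acyl-CoA synthetases tested, 2 were lower in the second of these comparisons, Acsl1 (log2 fold change −2.73, edgeR adjusted p = 1.69e-05) and Acsl5 (log2 fold change −1.55, edgeR adjusted p = 0.00058). Acsl4, which prefers arachidonic acid, was higher (log2 fold change 0.93, edgeR adjusted p = 0.00509). Lpcat3, which places arachidonic acid into phospholipids, was higher in Cpt2 L-/- than in control livers (log2 fold change 0.97, edgeR adjusted p = 8.37e-06) and, against Cpt2 L-/- livers, lower in Cpt2L-/- Ppara KO ones (log2 fold change −1.52, edgeR adjusted p = 3.37e-05). Of 15 Pparα targets that are none of the 10 genes, 7 were higher and 0 lower in Cpt2 L-/- than in control livers (median log2 fold change 0.41), where 16.2% and 14.9% of all tested genes were. In Ppara KO against control livers 1 was higher and 10 lower (median log2 fold change −3.29), where 15.9% and 13.2% of all tested genes were. All comparisons with control in this paragraph share the control libraries.

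The other genes of the 3 families were mostly low. Fads6 was at 19.7 to 54.0 FPKM and Fads3 at 1.22 to 12.98 FPKM over the 24 libraries. Scd3 was at no more than 2.48 FPKM, with a mean of 0.0344 CPM in control and 3.81 to 8.32 CPM in DKO livers, and Scd4 had at most 6 counts in any library. Elovl4 was not tested, and its 493 counts (10.9 FPKM) in the library labelled Ppara KO replicate 4 stood beside the skin keratins of that library.

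The genes whose pattern over the 24 libraries was most like that of each of the 10 were found by the root mean square difference of log2 CPM after centring each gene. For Elovl5 they were Rtfdc1 at 0.361, Hadhb at 0.377 and Ptplad1 at 0.394, where Ptplad1 is an older symbol of Hacd3, the dehydratase of the elongation cycle. For Fads2 they were Acads at 0.412, Bbox1 at 0.434 and Hadh at 0.439, and for Elovl2 Nudt1 at 0.425, Mmd at 0.428 and Hykk at 0.432. Elovl6 was matched most closely by Arhgap29 at 0.439, AI182371 at 0.448 and Mid1ip1 at 0.450, and Scd2 by Ago1 at 0.375, Pls3 at 0.375 and Gpsm2 at 0.379. For Elovl3 the differences were larger, with Pitx3 at 0.684, Gpr64 at 0.742 and Gm10433 at 0.781, and Pitx3 lies 377 bases from Elovl3 on the opposite strand and was at no more than 2.92 CPM in any library. For Elovl7 (Tubb2b at 0.970, Gpnmb at 0.972 and Sema3b at 1.009) and Scd1 (Cyp2f2 at 1.14, B4galnt3 at 1.20 and Uroc1 at 1.22) the differences were larger still. Elovl1 and Fads1, whose group means spanned less than 1 on the log2 scale, were not matched.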

How the data were processed

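RNA of 24 mouse liver samples in 6 genotype groups was sequenced, and groups were taken from the sample labels. The authors deposited a table of read counts and a table of FPKM values, the latter divided by gene length and library total. Both list 35275 genes by Ensembl identifier, with coordinates on GRCm38. The submitters' processing notes name STAR 2.5, HTSeq 0.6.1, Bowtie 0.12.2, TopHat, STAR-Fusion, DESeq2 and edgeR without roles, and the builds mm8 and mm9, which the coordinates do not match. The library kit was stranded, and the strand setting of the counting is not given in the sources used here. Total counts were 14470968 to 20371204 per library, and counting error is smallest for abundant genes.

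Counts were tested with the quasi-likelihood test of edgeR 4.0.16 (R 4.3.3; TMM scaling, filterByExpr with a minimum count of 10 and a total of 15, robust dispersion), with Benjamini-Hochberg adjustment over all genes tested and a threshold of 0.05. One fit held control, Tsc1 L-/-, Cpt2 L-/- and DKO, the other control, Cpt2 L-/-, Ppara KO and Cpt2L-/- Ppara KO, 16 libraries each, and Cpt2 L-/- against control was taken from the first. CPM were scaled over all 24 libraries. Alternatives were RLE scaling, no filter, DESeq2 1.42.0, limma 3.58.1 on log2 FPKM with a pseudocount of 1 or 0.1, a replicate block, other sets of libraries and each library left out. The test was checked on simulated counts. Figures used Python 3.11.15, pandas 2.3.3 and matplotlib 3.10.9.

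The 10 genes and all gene lists were chosen with earlier results of these data known. All 10 were reported. From the lists a gene was named if it was among the 3 with the largest change among those called in Cpt2 L-/- against control or Cpt2L-/- Ppara KO against Cpt2 L-/-, or was a targeted gene or a transcription factor of the regulators. Of the genes that this rule names, 1 is not reported here. Likeness was the root mean square difference of centred log2 CPM (prior count 2) over the 24 libraries, for genes whose group means spanned at least 1, among genes of at least 1 CPM on average, and the closest 3 are given. Of 219 list genes all were found, 5 by an older symbol.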

Additional observations from a re-analysis of the deposited data

Results flagged for a closer look

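Within groups of 4 libraries, a value was singled out when its gap to the nearest other value exceeded, as a share of the range of the group, the critical value of Dixon's test for 4 samples. Of 60 gene and group pairs tested 5 were, and chance alone picks about 1 in 20. Elovl3 in Tsc1 L-/- replicate 4 was at 30.6 CPM against 4.71 to 8.60 in the other 3 libraries. Elovl6 in DKO replicate 1 was at 25.8 CPM against 9.72 to 11.7. Fads2 in Cpt2L-/- Ppara KO replicate 3 was at 467 CPM against 252 to 269.7. Scd1 in Tsc1 L-/- replicate 1 was at 4008 CPM against 1255 to 1644, and in Cpt2 L-/- replicate 1 at 205 CPM against 728 to 776.

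The fitted effect of Cpt2 loss differed between livers with and without Ppara for 3 of the 10 genes by a test of the difference itself, a share near the 24% of all tested genes. Line and genotype cannot be told apart in this interaction, since Cd1d2, Rps3a3 and Gm6472 set control apart from its other groups. The log2 difference was 1.28 for Elovl6 (SE 0.42, edgeR adjusted p = 0.0362), −3.00 for Elovl7 (SE 0.89, edgeR adjusted p = 0.0236) and 1.26 for Fads2 (SE 0.44, edgeR adjusted p = 0.0461). Of 24 alternatives the Elovl6 call was lost in 9, the Elovl7 call in 2 and the Fads2 call in 15.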

How the results depend on the processing

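The number of the 10 genes called moved past 1.5 times under some alternatives. With edgeR on all 24 libraries, 1 was called in Tsc1 L-/- against control (2 in the reported fit), 2 in Cpt2 L-/- against control (4) and 1 in DKO against Cpt2 L-/- (2). A fit with the Ppara KO groups also called 2 in Cpt2 L-/- against control, and fits of 2 groups alone called 4 in DKO against Cpt2 L-/- and 0 in Cpt2L-/- Ppara KO against Ppara KO, where 2 were reported and 1 was called without the libraries labelled Ppara KO replicate 4 and Cpt2L-/- Ppara KO replicate 1, an alternative chosen after seeing the data. For the interaction of Tsc1 and Cpt2, DESeq2 and limma on log2 FPKM with a pseudocount of 1 or of 0.1 called 1 gene, Scd1, where edgeR called 0. For the interaction of Cpt2 and Ppara, 1 was called with no filter on low counts, where 3 were reported. The cause of these changes was not tested.

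Leaving out 1 library at a time gave 1 to 3 calls in Tsc1 L-/- against control, 2 to 4 in Cpt2 L-/- against control, 1 to 2 in DKO against Cpt2 L-/-, 0 to 1 for the interaction of Tsc1 and Cpt2, 1 to 2 in Cpt2L-/- Ppara KO against Cpt2 L-/-, 1 to 4 in Cpt2L-/- Ppara KO against Ppara KO and 1 to 4 for the interaction of Cpt2 and Ppara. Each library whose absence ended a reported call of a gene is named beside that gene. Other calls gained were Elovl3 in DKO against Cpt2 L-/- (edgeR adjusted p = 0.0131) and in Ppara KO against control (edgeR adjusted p = 0.046) in fits of 2 groups alone, Elovl5 in DKO against control by limma, Elovl5 in Cpt2L-/- Ppara KO against Ppara KO without Cpt2L-/- Ppara KO replicate 4, and Scd2 in Cpt2L-/- Ppara KO against Cpt2 L-/- in a fit of the 2 groups alone (edgeR adjusted p = 0.0325) and without those labelled Ppara KO replicate 4 and Cpt2L-/- Ppara KO replicate 1 (edgeR adjusted p = 0.0459). In DKO against control (4 calls, 3 to 6 under the alternatives), DKO against Tsc1 L-/- (7, and 5 to 7) and Ppara KO against control (5, and 4 to 6) the counts stayed within 1.5 times.

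Replicate numbers did not pair the samples, since the deviations of same-numbered libraries from their group means correlated between −0.26 and 0.22. With the replicate number as a block, the count of calls was the same in every comparison except the interaction of Cpt2 and Ppara, where 2 were called instead of 3 (Fads2 lost, log2 difference 1.28, edgeR adjusted p = 0.0627). Over single genes and all alternatives, 1580 values kept direction and side of the threshold, 78 lost a call, 43 gained one, 89 uncalled values changed sign and 0 called values reversed.

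With 4 libraries a group, edgeR recovered, in simulated counts for Cpt2 L-/- against control, 72% of changes of 1 and 93% of changes of 2 on the log2 scale, and for Ppara KO against control 44% and 88%. Only 100 genes of each size of change were simulated, against 4235 and 3952 genes called in the real comparisons. The adjusted cutoff depends on that number, so these rates are not those of the reported tests. Elovl7 in control and Tsc1 L-/- libraries rested on few counts, at 0.362 to 1.38 CPM, which limits the precision of its fold changes.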

Other observations

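Of 11 regulators of lipid synthesis, 1 was higher and 2 lower in Cpt2 L-/- than in control livers (median log2 fold change 0.04), where 16.2% and 14.9% of all tested genes were. The lower ones were Insig1 and Rxra, the shared partner of Lxr and Pparα (log2 fold change −0.50, SE 0.13, edgeR adjusted p = 0.00658). Rxra was also lower in DKO than in control livers (log2 fold change −0.69, SE 0.13, edgeR adjusted p = 0.000493), a comparison with the same control libraries. Mlxipl, which encodes the carbohydrate-responsive factor Chrebp, was lower in DKO than in Tsc1 L-/- livers (log2 fold change −1.74, SE 0.50, edgeR adjusted p = 0.0161), as Scd1 and Elovl6 were. Between DKO and Cpt2 L-/- livers Mlxipl did not pass the test (log2 fold change 0.007, SE 0.48, edgeR adjusted p = 0.994). The part of Mlxipl in the levels of Scd1 and Elovl6 was not tested. Nr1h3, which encodes Lxrα, was lower in Ppara KO than in control livers (log2 fold change −0.61, SE 0.20, edgeR adjusted p = 0.0279) and higher in Cpt2L-/- Ppara KO than in Ppara KO livers (log2 fold change 0.83, SE 0.20, edgeR adjusted p = 0.00951). Srebf1 was lower in Cpt2L-/- Ppara KO than in Cpt2 L-/- livers (log2 fold change −0.99, SE 0.28, edgeR adjusted p = 0.0233).

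Among 11 genes that place fatty acids into lipids, 2 were higher and 1 lower in Cpt2 L-/- than in control livers (median log2 fold change −0.07), where 16.2% and 14.9% of all tested genes were. The higher ones were Lpcat3 and Dgat1, an enzyme of triglyceride synthesis (log2 fold change 0.79, SE 0.12, edgeR adjusted p = 0.000126), and the lower one was Mboat7, which places arachidonic acid into phosphatidylinositol (log2 fold change −0.43, SE 0.13, edgeR adjusted p = 0.0161). Of 3 adipocyte markers tested in that comparison 2 were higher, the lipid droplet gene Cidec (log2 fold change 3.58, SE 0.56, edgeR adjusted p = 0.000345) and Pparg (log2 fold change 0.60, SE 0.21, edgeR adjusted p = 0.0336), and the summed level of the 9 markers was 405 to 739 CPM in Cpt2 L-/- against 55.6 to 98.5 CPM in control livers, with Cidec itself at 552 ± 134 against 46.1 ± 18.6 CPM (SD, n = 4). In the same comparison 1 of 7 cholangiocyte markers was lower (median log2 fold change −0.16), and 1 of 3 tested female-biased liver genes was lower (median −2.92). Of 4 lymphocyte markers tested 0 were higher and 0 lower by edgeR (median −0.44), with 0 higher and 1 lower at an unadjusted p under 0.05, 0 and 1 by DESeq2, and 0 and 0 by limma on FPKM.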
